A study of Mus musculus with 16 samples.

Results

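The 45 genes described here encode the folding, quality control and collagen processing machinery of the endoplasmic reticulum (ER), together with the extracellular oxidases that crosslink collagen. They were given as a fixed list of symbols and were found by symbol in tables of 55450 gene rows, where each of the 45 had 1 row. By role, 15 are chaperones and folding enzymes, 3 are unfolded protein sensors or their transcription factor, and 6 act in ER-associated degradation. Another 13 modify or chaperone collagen, 3 belong to the coat and receptor that export procollagen, and 5 are lysyl oxidases. Poly(A) RNA was sequenced from stranded libraries, and the authors deposited 1 value per gene and library as FPKM, the fragments of a gene divided by its length and by the mapped fragments of the library. FPKM is scaled by gene length, so levels may be set side by side between genes.

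The cells were chondrocytes of mouse articular cartilage, kept in primary culture at 3% O2 and 5% CO2 in medium with 10% serum. There were 4 groups of 4 libraries. In the bleomycin group, cells received hyaluronidase at 4 U/mL for 4 h without serum, 2 days after seeding, then bleomycin, which breaks DNA, at 50 µg/mL for 24 h, and then stayed in fresh medium for 5 days. The doxorubicin group received doxorubicin, a topoisomerase II poison, at 50 nM for 5 days, with medium renewed every 48 h. In the IL-1β group, the inflammatory cytokine interleukin-1 beta was given at 1 ng/mL for 24 h. The vehicle group is named beside IL-1β as PBS for 24 h. The study used both drugs to induce senescence and IL-1β as an acute stress for comparison. Whether the vehicle cells received hyaluronidase, and when they were harvested relative to the drug groups, is not stated, so drug, pretreatment and time in culture cannot be told apart. Strain, sex and age of the mice are not given in the labels. Nothing says that replicates came from separate animals or cultures, so the p-values below measure the spread between these libraries, which may be technical.

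Proteins bound for secretion enter the ER unfolded, where BiP and other chaperones hold them and disulfide isomerases set their bonds. When unfolded protein builds up, sensors in the ER membrane raise the transcription of chaperones and of the degradation machinery. Cartilage cells secrete large amounts of collagen II, whose chains need hydroxylated prolines and lysines, a dedicated chaperone and an enlarged transport carrier, and whose fibrils are joined outside the cell by lysyl oxidases.

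Many ER chaperone genes are known to be switched on through the ER stress element in their promoters, bound by ATF6 and XBP1 with NF-Y. The element was searched on both strands as CCAAT, then 9 bases of any kind, then CCACG, in RefSeq windows (GRCm38.p6) from 250 bases before to 50 bases after each gene's start. Windows were in the table for 35 of the 45 genes. The exact element was found in 9 of these 35 genes (Calr, Canx, Creld2, Derl3, Dnajc3, Hsp90b1, Hspa5, Pdia6 and Syvn1), and in 37 of all 27025 genes of the table, 0.137%. Its end motifs alone were common: CCAAT was in 24 of the 35 genes and in 41.1% of all genes, and CCACG was in 30 of the 35 and in 35.5% of all genes. The stretches below show the element in 7 chaperone genes whose RNA levels are compared further on, read along the strand of each gene with 20 bases on either side. In Hspa5 the element ran from base -65 to base -47 relative to the RefSeq start. The gene span given for Hspa5 further on comes from another annotation and starts farther upstream, so the stretch lies inside that span. Capitals mark both ends of the element, which read CGTGG and ATTGG where it lies on the other strand.
Hspa5 (chr2:34772005-34772063, + strand): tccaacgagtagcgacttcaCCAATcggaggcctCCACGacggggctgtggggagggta
Hsp90b1, outer site (chr10:86705618-86705676, - strand): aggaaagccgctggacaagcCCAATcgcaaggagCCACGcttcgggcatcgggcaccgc
Hsp90b1, inner site (chr10:86705513-86705571, - strand): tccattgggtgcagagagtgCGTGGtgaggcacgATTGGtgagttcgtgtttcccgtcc
Pdia6 (chr12:17266471-17266529, + strand): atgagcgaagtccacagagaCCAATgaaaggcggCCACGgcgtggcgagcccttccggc
Canx (chr11:50325780-50325838, - strand): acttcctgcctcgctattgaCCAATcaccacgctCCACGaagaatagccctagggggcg
Creld2 (chr15:88819500-88819558, + strand): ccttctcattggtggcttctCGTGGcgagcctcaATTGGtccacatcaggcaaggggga
Dnajc3 (chr14:118937807-118937865, + strand): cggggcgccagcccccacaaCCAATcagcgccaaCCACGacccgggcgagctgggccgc
Calr (chr8:84847055-84847113, - strand): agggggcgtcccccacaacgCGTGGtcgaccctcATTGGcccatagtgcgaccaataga

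A second motif, TGACGTGG, which XBP1 binds, was found in the windows of 2 of the 35 genes and of 0.714% of all genes in the table. Both encode subunits of the COPII coat, which buds transport vesicles from the ER. They are shown because both fell in all 3 comparisons with vehicle given below, with 10 bases on either side and the motif in capitals. Genes whose windows lacked this motif, among them Serpinh1, Herpud1 and Edem1, also fell in all 3, and a link between motif and level was not tested.
Sec23a (chr12:59011994-59012021, - strand): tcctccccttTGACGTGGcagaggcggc
Sec24d (chr3:123267460-123267487, + strand): cccgggcgccTGACGTGGcactagcaac
The related cAMP response element TGACGTCA was found in 0 of the 35 genes and in 2.03% of all genes. A match describes these letters only, and binding was not measured.

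Depth, estimated from the steps between low values, was 15980000 to 22270000 fragments per library. Libraries of the bleomycin, doxorubicin and vehicle groups summed to 405159 to 423830 FPKM. IL-1β libraries summed to 521294 to 559190 FPKM, of which the acute-phase gene Saa3 alone took 11.991% to 14.351%. All 13 chondrocyte markers were at or above 1 FPKM in every library, with Col2a1 among the highest genes. Their summed level was 9544 to 12878 FPKM in bleomycin, 9578 to 12733 in doxorubicin and 5871 to 6295 in IL-1β libraries, against 12814 to 17252 in vehicle libraries. Of the 13, 10 were lower and 1 higher after bleomycin, 8 lower and 0 higher after doxorubicin, and 13 lower after IL-1β by limma. Summed tendon markers were 689 to 734 FPKM in bleomycin, 670 to 696 in doxorubicin and 265 to 280 in IL-1β, against 407 to 520 in vehicle libraries. The higher sum after the drugs was not shared by most of the list. Of 5 tendon markers tested, 1 was higher and 2 lower after each drug, with median log2 differences of -0.00 for bleomycin and -0.09 for doxorubicin. After IL-1β 0 were higher and 4 lower by limma. Summed synovial fibroblast markers were 112 to 146, 162 to 217 and 116 to 143 FPKM in bleomycin, doxorubicin and IL-1β libraries, against 55.3 to 83.2 in vehicle libraries, with 5 of the 7 at or above 1 FPKM in every library. Of 5 synovial fibroblast markers tested, 3 were higher and 1 lower after bleomycin, and 4 were higher and 1 lower after doxorubicin. After IL-1β 2 were higher and 2 lower, with a median log2 difference of 0.01. Summed adipocyte markers were 73 to 84, 154 to 201 and 367 to 405 FPKM, against 35.7 to 41.3 in vehicle libraries. Lep was at 0 in all bleomycin, IL-1β and vehicle libraries. All 6 adipocyte markers tested were higher after each drug, and 3 of the 6 after IL-1β. Summed macrophage markers were 17.1 to 18.8, 20.2 to 25 and 30 to 35.5 FPKM, against 9.21 to 11.1 in vehicle libraries. Fcgr1 was at 0 in all doxorubicin, IL-1β and vehicle libraries. Of the 4 macrophage markers tested, 3 were higher after each treatment, and 1 was lower after IL-1β. The shares called over all genes are given below. Summed osteoblast markers were 28.1 to 37.5, 26.8 to 31.4 and 36.3 to 43.3 FPKM, against 29.3 to 37.4 in vehicle libraries. Of 6 tested, 2 were higher and 3 lower after each drug, and 2 and 2 after IL-1β, with log2 differences up to 2.19, 2.17 and 3.20. Summed skeletal muscle markers were 9.02 to 11.4, 9.32 to 11.4 and 4.59 to 7.15 FPKM, against 9.32 to 12.8 in vehicle libraries. All 7 endothelial and all 6 erythroid markers were under 1 FPKM in every library. In bulk RNA, fewer cells of a type and less RNA per cell cannot be told apart, and the part of cell composition in the differences below was not tested.

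Differences were tested on log2(FPKM + 1) with limma over 12976 genes at or above 1 FPKM in at least 4 libraries, with Benjamini-Hochberg adjustment within each comparison. "Rose" and "fell" below mean an adjusted p under 0.05, differences are log2 ± SE with n = 4 libraries per group, and levels are mean ± SD FPKM. The added 1 FPKM understates the change of low genes. Of the 45 genes, 44 were tested. Derl3, a derlin of the degradation channel, had 0.0772 to 1.14 FPKM and was not.

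After bleomycin 4 of the 44 genes rose and 17 fell, 9.09% and 38.6%, against 27.9% higher and 19% lower over all genes tested. After doxorubicin 3 rose and 22 fell, 6.82% and 50%, against 25.4% higher and 22.8% lower over all genes. After IL-1β 4 rose and 23 fell, 9.09% and 52.3%, against 24.5% higher and 18.4% lower over all genes. The median difference of the 44 was -0.08, -0.16 and -0.22 for bleomycin, doxorubicin and IL-1β, where the medians over all genes tested were 0.06, 0.02 and 0.03. All 3 comparisons use the same 4 vehicle libraries, so a vehicle library that stands apart moves all 3 together. The summed level of all 45 genes was 8039 ± 73.9 FPKM in bleomycin, 7879 ± 109 in doxorubicin and 7722 ± 147 in IL-1β libraries, against 8709 ± 36.4 in vehicle libraries, with every treated library below every vehicle library. Most changes were small. Among the 44 tested genes, P4ha3 and Loxl4, both after IL-1β, were the 2 that differed from vehicle by over 2-fold.

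The call of a direction over all genes depended on how libraries were scaled. Of all genes called after bleomycin, 59.5% were higher with FPKM as deposited, 48.3% with quantile normalization and 50% with median-of-ratios scaling. After IL-1β the share was 57.1%, against 44% with quantile normalization and 16.1% when each library was set to an equal sum of FPKM. That last setting moved the median of all genes after IL-1β by -0.31, and gave 0 of the 44 genes higher and 40 lower by limma, the single gene above 0 being Sdf2l1 (0.19, adjusted p = 0.107). Where a scaling ends or turns a call of a gene named below, this is said in the same paragraph.

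**Figure D1:**
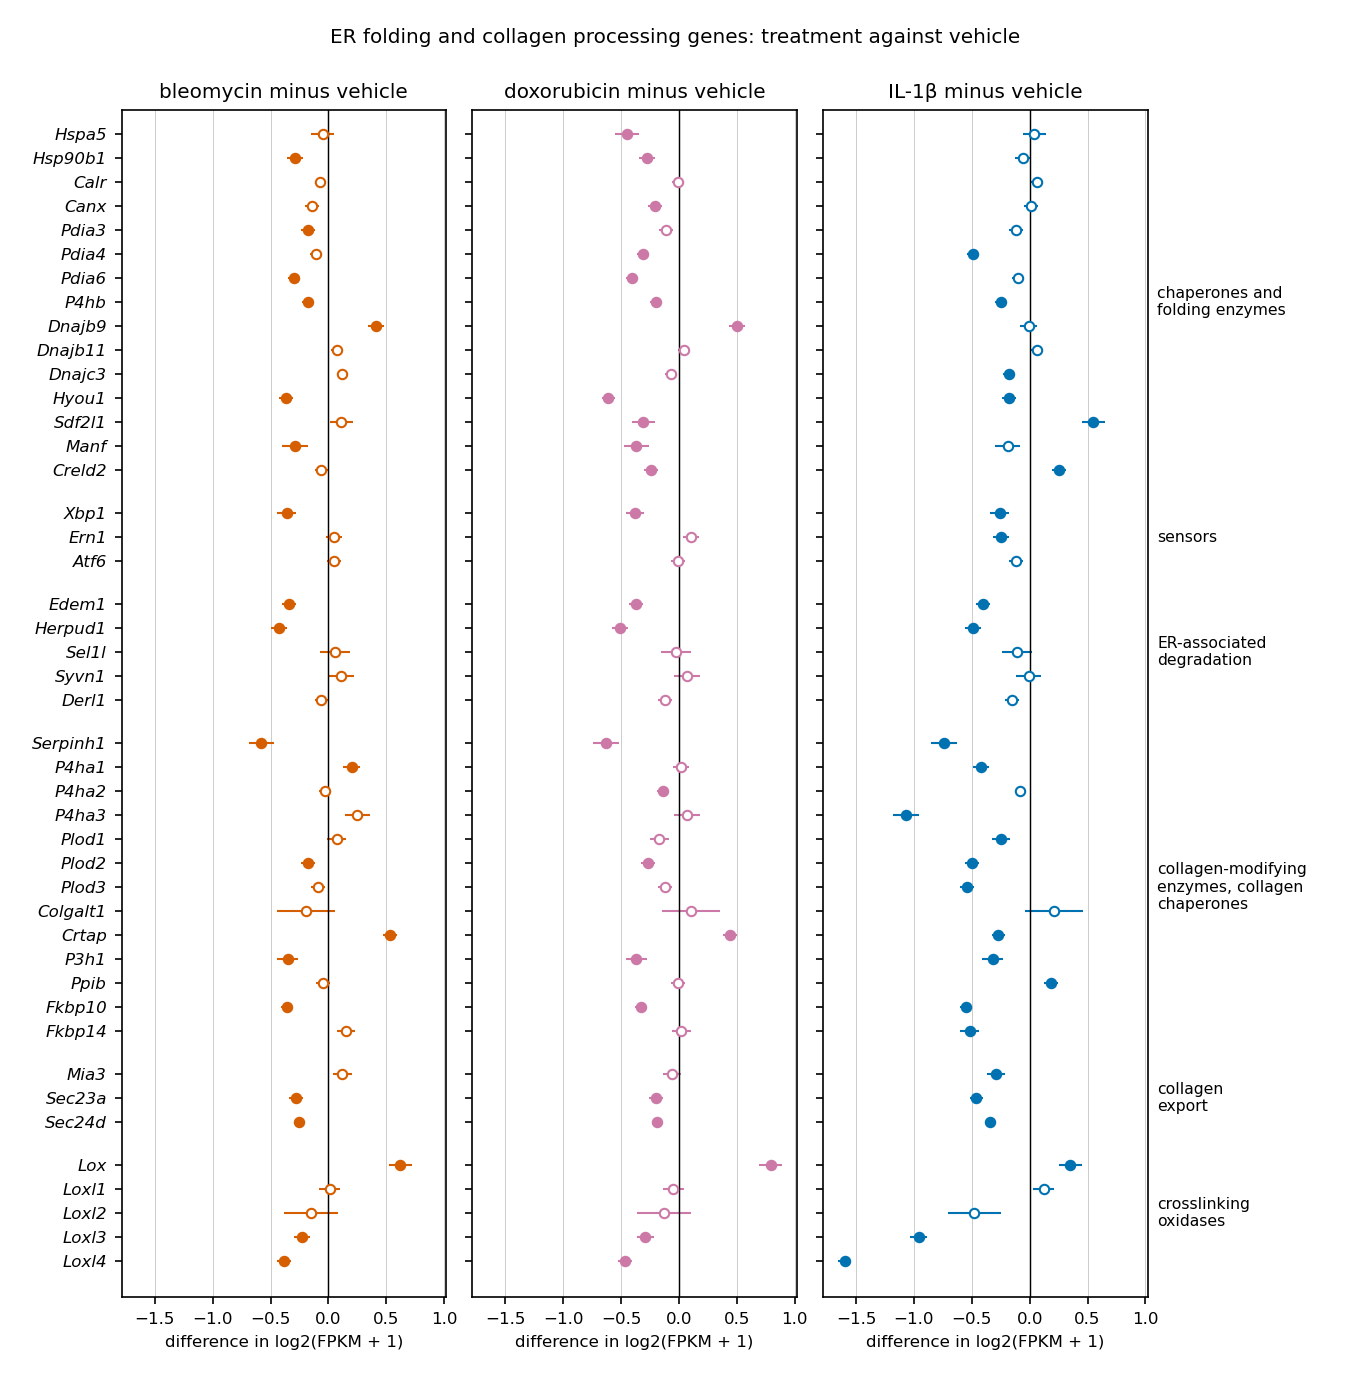
Difference from vehicle in log2(FPKM + 1) for the 44 tested genes, by role, after bleomycin, doxorubicin and IL-1β (n = 4 libraries per group). Points are limma estimates, bars are 1 SE, and filled points have an adjusted p under 0.05. Loxl4 after IL-1β lies farthest from 0 at -1.60, and Lox, Crtap and Dnajb9 lie to the right of 0 after both drugs. Setting libraries to an equal sum of FPKM turns 9 of the IL-1β points that lie right of 0 to the left, among them Lox and Creld2.

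Among the 15 chaperones and folding enzymes, 1 rose and 6 fell after bleomycin, and 1 rose and 10 fell after doxorubicin. After IL-1β 2 rose and 4 fell. Median differences were -0.11, -0.24 and -0.06 for bleomycin, doxorubicin and IL-1β. The shares that fell were 40%, 66.7% and 26.7%, against 19%, 22.8% and 18.4% over all genes tested. Higher were 6.67%, 6.67% and 13.3%, against 27.9%, 25.4% and 24.5%. Hspa5 (ENSMUSG00000026864.13, chromosome 2, 34771970 to 34777547 on GRCm38) encodes BiP, the central Hsp70 chaperone of the ER. It had 359, 409, 395 and 395 FPKM in bleomycin, 258, 312, 302 and 311 in doxorubicin and 444, 403, 399 and 419 in IL-1β libraries, against 427, 488, 408 and 311 in vehicle libraries. Only the doxorubicin libraries lay at the low end, and the lowest vehicle library overlapped them. Hspa5 fell after doxorubicin (-0.45 ± 0.10, adjusted p = 0.00199), whereas its differences after bleomycin (-0.05 ± 0.10) and IL-1β (0.04 ± 0.10, and -0.33 with an equal sum of FPKM) did not pass. Its partner Hyou1, an Hsp110-like chaperone that exchanges the nucleotide of BiP, moved more. It had 37.3, 41, 41.5 and 35.5 FPKM in bleomycin, 33.7, 33.4, 31.9 and 31.6 in doxorubicin and 40.8, 46, 46.8 and 44.5 in IL-1β libraries, against 51.5, 51.1, 50.4 and 48.5 in vehicle libraries. All 12 treated libraries were below all 4 vehicle libraries, and doxorubicin was lowest. Hyou1 fell by 0.37 after bleomycin and by 0.61 after doxorubicin (adjusted p = 7.86e-05 and 3.35e-07). Its fall of 0.18 after IL-1β (adjusted p = 0.0228) lost its call without IL-1β library 1 (-0.13) or vehicle library 1 (-0.16) or 2 (-0.17).

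Hsp90b1 encodes GRP94, the Hsp90 of the ER. Its levels were 342, 351, 320 and 343 FPKM in bleomycin, 345, 334, 317 and 369 in doxorubicin and 409, 414, 379 and 388 in IL-1β libraries, against 448, 442, 356 and 416 in vehicle libraries. It fell after bleomycin (-0.29 ± 0.07, adjusted p = 0.00279) and after doxorubicin (-0.28 ± 0.07, adjusted p = 0.00327), where 1 doxorubicin library lay above the lowest vehicle library. After IL-1β it was at -0.06 ± 0.07, which passed at -0.24 with quantile normalization. A predicted miRNA gene, Gm25745, lies within Hsp90b1 on the same strand with 201 to 260 FPKM, and how the authors' counting split their reads is not stated. Calr and Canx encode the lectin chaperones that bind sugar-tagged chains. Calr was among the highest of the 45, at 686 ± 16.7 FPKM in bleomycin, 718 ± 35.5 in doxorubicin and 757 ± 31.6 in IL-1β libraries, against 724 ± 38.6 in vehicle libraries, and did not pass in any of these comparisons (adjusted p = 0.258, 0.891 and 0.342), though it fell after bleomycin with median-of-ratios scaling (-0.14). With an equal sum of FPKM or quantile normalization its IL-1β difference turned from 0.06 to -0.31 or -0.16. Canx fell after doxorubicin (-0.21 ± 0.06, adjusted p = 0.0137). Its bleomycin difference of -0.14 (adjusted p = 0.0826) passed at -0.18 without vehicle library 3 and at -0.21 with median-of-ratios scaling.

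The disulfide isomerases Pdia3, Pdia4, Pdia6 and P4hb differed in which comparisons they passed. P4hb, protein disulfide isomerase and also the shared subunit of the collagen prolyl 4-hydroxylases, had 848, 759, 816 and 779 FPKM in bleomycin, 788, 775, 784 and 799 in doxorubicin and 723, 748, 790 and 777 in IL-1β libraries, against 852, 902, 933 and 931 in vehicle libraries. Every treated library was below every vehicle library, and P4hb fell by 0.18, 0.20 and 0.25 (adjusted p = 0.00776, 0.00301 and 0.00058). Its bleomycin call was lost with quantile normalization (-0.08). Pdia6 fell after bleomycin (-0.30 ± 0.05, adjusted p = 7.11e-05) and doxorubicin (-0.41 ± 0.05, adjusted p = 2.49e-06) but was at -0.10 after IL-1β (adjusted p = 0.106), which passed with median-of-ratios scaling (-0.14) and quantile normalization (-0.31). Pdia4 had 164, 163, 155 and 147 FPKM in bleomycin, 135, 140, 139 and 134 in doxorubicin and 122, 126, 115 and 121 in IL-1β libraries, against 174, 174, 166 and 165 in vehicle libraries. The 4 groups did not overlap at any point. It fell after doxorubicin (-0.31 ± 0.05, adjusted p = 4.24e-05) and IL-1β (-0.49 ± 0.05, adjusted p = 2.78e-07), and its bleomycin difference of -0.11 passed without bleomycin library 1 (-0.13), under quantile normalization (-0.14) and under median-of-ratios scaling (-0.18). Pdia3, which works with Calr and Canx, fell after bleomycin (-0.18 ± 0.06, adjusted p = 0.0286). That call was lost without bleomycin library 3 (-0.15) or 4 (-0.18) or vehicle library 1 (-0.13) or 2 (-0.18), with quantile normalization (-0.16), without a filter on low values, and with only bleomycin and vehicle libraries fitted. Its IL-1β difference of -0.12 passed without vehicle library 3 (-0.17), under quantile normalization (-0.29) and under median-of-ratios scaling (-0.16).

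Few chaperone genes rose, and different ones did after the drugs and after IL-1β. Dnajb9 encodes a J-domain cochaperone of BiP, also called ERdj4. It had 21.3, 19.5, 22.4 and 21.6 FPKM in bleomycin, 21.2, 21.7, 26.9 and 21.1 in doxorubicin and 16.8, 14.6, 15.8 and 15.3 in IL-1β libraries, against 14.9, 15.5, 16.5 and 16.1 in vehicle libraries. All 8 drug libraries were above all vehicle libraries, and the IL-1β libraries overlapped vehicle. The gene rose after bleomycin (1.35-fold, 0.41 ± 0.07, adjusted p = 0.000334) and doxorubicin (1.44-fold, 0.50 ± 0.07, adjusted p = 4.24e-05). After IL-1β it was at -0.01 ± 0.07, and its levels after bleomycin and doxorubicin were above those after IL-1β by 0.41 and 0.51 in direct comparisons (adjusted p = 0.000217 and 2.82e-05).

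Sdf2l1, which works with the J protein Dnajb11, went the other way. Its levels were 25.9, 27.6, 32.8 and 29.3 FPKM in bleomycin, 21.2, 18.3, 23.4 and 22.3 in doxorubicin and 41.4, 32.3, 46 and 39.4 in IL-1β libraries, against 28.7, 24.8, 28.3 and 24.9 in vehicle libraries. Every IL-1β library was above and every doxorubicin library below all vehicle libraries. It rose after IL-1β (1.49-fold, 0.55 ± 0.10, adjusted p = 0.000373) and fell after doxorubicin (-0.31 ± 0.10, adjusted p = 0.0184), a call lost without doxorubicin library 2 (-0.25) or vehicle library 1 (-0.28) or 3 (-0.29). With an equal sum of FPKM the IL-1β difference was 0.19 and no longer passed. Creld2, an ER stress gene with isomerase activity, also rose after IL-1β (0.25 ± 0.06, adjusted p = 0.00449) and fell after doxorubicin (-0.24 ± 0.06, adjusted p = 0.00586). Its IL-1β difference was -0.11 with an equal sum of FPKM and 0.15, not called, with quantile normalization. Manf, a small secreted ER stress protein, fell after doxorubicin (-0.37 ± 0.11, adjusted p = 0.00881) and bleomycin (-0.29 ± 0.11, adjusted p = 0.037). The bleomycin call was lost without bleomycin library 1 (-0.30), 3 (-0.23) or 4 (-0.30) or vehicle library 1 (-0.22) or 2 (-0.25), and without a filter on low values. Its IL-1β difference of -0.19 passed at -0.31 with quantile normalization. Manf overlaps Rbm15b on the same strand, which had 7.89 to 9.99 FPKM. Dnajc3, another cochaperone of BiP, fell after IL-1β (-0.18 ± 0.05, adjusted p = 0.00695), and its bleomycin difference of 0.12 (adjusted p = 0.0534) passed at 0.15 without vehicle library 4 and with either other filter on low values. Dnajb11 stayed within 67.3 to 78.1 FPKM over all 16 libraries and passed in none of the comparisons with vehicle, though its IL-1β difference of 0.06 turned to -0.31 with an equal sum of FPKM.

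Read against the promoters shown above, 8 genes with the exact ER stress element were tested. After bleomycin 2 of them fell (Hsp90b1 and Pdia6) and 0 rose by limma, while Dnajc3 was higher and Canx lower at an unadjusted p under 0.05. After doxorubicin 5 fell (Hspa5, Hsp90b1, Canx, Pdia6 and Creld2) and 0 rose by limma or at an unadjusted p under 0.05. After IL-1β 1 rose (Creld2) and 1 fell (Dnajc3). Creld2 lost that call with an equal sum of FPKM (-0.11) and with quantile normalization (0.15). Counts over 8 genes are small, and over all genes 19%, 22.8% and 18.4% were lower and 27.9%, 25.4% and 24.5% higher after bleomycin, doxorubicin and IL-1β. Calr and Syvn1 carry the element and passed in none of these comparisons with FPKM as deposited.

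The 3 genes of the sensor branch had low to moderate levels. Xbp1 encodes the transcription factor whose mRNA is spliced by the sensor IRE1, a step that FPKM per gene cannot show. It had 44.9, 43.2, 50.6 and 47.6 FPKM in bleomycin, 41.8, 43.5, 51.8 and 46.4 in doxorubicin and 48.9, 47.5, 54.8 and 48.3 in IL-1β libraries, against 56.1, 55.6, 66.8 and 61.9 in vehicle libraries. All 12 treated libraries were below all vehicle libraries. It fell by 0.36, 0.38 and 0.26 after bleomycin, doxorubicin and IL-1β (adjusted p = 0.00128, 0.000686 and 0.0118). Ern1, which encodes IRE1 alpha, had 6.79, 7, 6.87 and 6.75 FPKM in bleomycin, 6.75, 7.23, 8.06 and 6.57 in doxorubicin and 5.87, 5.02, 5.32 and 5.44 in IL-1β libraries, against 6.24, 6.72, 6.81 and 6.64 in vehicle libraries. Only the IL-1β libraries lay apart, and Ern1 fell there (-0.25 ± 0.07, adjusted p = 0.00594). Atf6, the sensor that is cleaved to a transcription factor, had 12 ± 0.476 FPKM in bleomycin, 11.5 ± 0.42 in doxorubicin and 10.5 ± 0.542 in IL-1β libraries, against 11.5 ± 0.592 in vehicle libraries. It passed in none (adjusted p = 0.492, 0.904 and 0.0912), and its IL-1β difference of -0.12 passed at -0.16 without vehicle library 3 or with median-of-ratios scaling, and at -0.18 with quantile normalization.

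ER-associated degradation draws misfolded proteins out of the ER. Here the same pair of genes fell after each treatment, and the other 3 tested genes did not pass. The pair is 40% of the 5 tested, against 19%, 22.8% and 18.4% lower over all genes after bleomycin, doxorubicin and IL-1β. Herpud1 encodes a membrane protein of the degradation complex and is a classic ER stress gene. It had 57.8, 58.2, 58.3 and 53 FPKM in bleomycin, 51.8, 51.5, 57.3 and 55.2 in doxorubicin and 49.1, 52.1, 62.6 and 55.2 in IL-1β libraries, against 75.8, 82.7, 76.1 and 73.7 in vehicle libraries. All treated libraries were below all vehicle libraries, with differences of -0.43, -0.51 and -0.49 (adjusted p = 7.77e-05, 1.34e-05 and 2.12e-05). Edem1, which selects misfolded glycoproteins, had 19.1 ± 0.711 FPKM in bleomycin, 18.8 ± 0.853 in doxorubicin and 18.3 ± 1.33 in IL-1β libraries, against 24.5 ± 0.471 in vehicle libraries. It fell by 0.34, 0.37 and 0.40 (adjusted p = 0.000101, 4.31e-05 and 1.79e-05). Sel1l and Syvn1, which form the ubiquitin ligase of the channel, spread widely within groups. Sel1l had 28, 38.6, 28.8 and 27.2 FPKM in bleomycin libraries and 33, 23.7, 30 and 30.2 in vehicle libraries, with an SE of 0.13 on each difference. Syvn1 stayed within 13.7 to 21.2 FPKM over all 16 libraries. Derl1, a derlin like Derl3, passed after doxorubicin at -0.17 without doxorubicin library 3. Its IL-1β difference of -0.15 (adjusted p = 0.0562) passed without IL-1β library 4 (-0.18), under quantile normalization (-0.27) and under median-of-ratios scaling (-0.20).

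**Figure D2:**
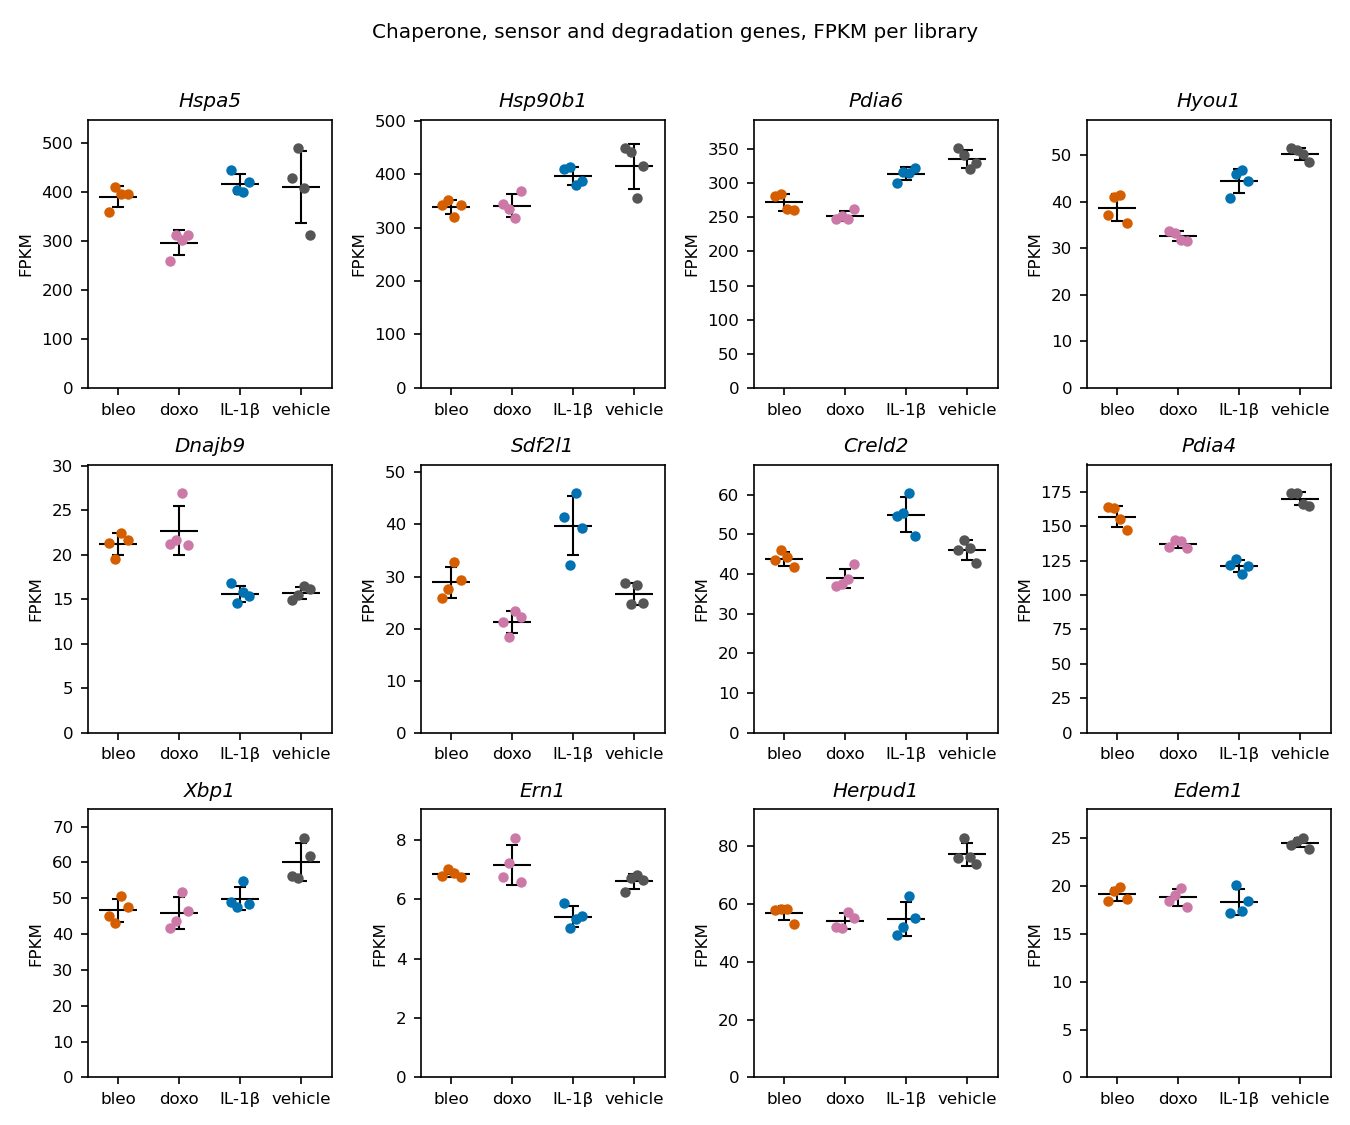
FPKM per library for 8 chaperone and folding genes, Xbp1, Ern1, Herpud1 and Edem1 in bleomycin (bleo), doxorubicin (doxo), IL-1β and vehicle. Points are libraries, long lines are means and whiskers are SD (n = 4). Herpud1, Edem1, Xbp1 and Hyou1 lie below vehicle in every treated library, Dnajb9 lies above vehicle in every drug library, and Sdf2l1 and Creld2 lie above vehicle in every IL-1β library as deposited, though Creld2 turns to -0.11 with an equal sum of FPKM.

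Of the 13 collagen-modifying enzymes and collagen chaperones, 2 rose and 4 fell after bleomycin, and 1 rose and 5 fell after doxorubicin. After IL-1β 1 rose and 10 fell. Median differences were -0.05, -0.12 and -0.42 for bleomycin, doxorubicin and IL-1β. The shares that fell were 30.8%, 38.5% and 76.9%, against 19%, 22.8% and 18.4% over all genes tested. Higher were 15.4%, 7.69% and 7.69%, against 27.9%, 25.4% and 24.5%. Serpinh1 (ENSMUSG00000070436.12, chromosome 7, 99345376 to 99353239) encodes HSP47, the chaperone that binds the folded collagen triple helix. It had 486, 483, 606 and 454 FPKM in bleomycin, 450, 442, 565 and 504 in doxorubicin and 469, 372, 511 and 469 in IL-1β libraries, against 677, 752, 866 and 739 in vehicle libraries. Every treated library was below every vehicle library. Serpinh1 fell 1.49-fold after bleomycin (-0.58 ± 0.11, adjusted p = 0.000505), 1.55-fold after doxorubicin (-0.63 ± 0.11, adjusted p = 0.000225) and 1.66-fold after IL-1β (-0.74 ± 0.11, adjusted p = 5.48e-05). Fkbp10, the prolyl isomerase FKBP65 that also serves lysyl hydroxylation of collagen, had 234, 234, 231 and 218 FPKM in bleomycin, 222, 248, 229 and 235 in doxorubicin and 193, 204, 207 and 200 in IL-1β libraries, against 287, 296, 304 and 288 in vehicle libraries. It fell by 0.36, 0.33 and 0.55 (adjusted p = 1.07e-05, 1.77e-05 and 6.87e-08), again without overlap. Fkbp10 overlaps Nt5c3b, with 28.1 to 61.6 FPKM, on the opposite strand, and whether the authors counted by strand is not stated.

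The 3 partners of the prolyl 3-hydroxylase complex, which modifies single prolines of collagen and aids its folding, moved in different directions. Crtap, its helper subunit, had 155, 159, 160 and 152 FPKM in bleomycin, 146, 143, 144 and 157 in doxorubicin and 95.1, 80.2, 95.7 and 90.4 in IL-1β libraries, against 106, 106, 122 and 102 in vehicle libraries. Drug libraries lay above and IL-1β libraries below all vehicle libraries. Crtap rose 1.44-fold after bleomycin (0.53 ± 0.06, adjusted p = 6.6e-06) and 1.35-fold after doxorubicin (0.44 ± 0.06, adjusted p = 3.54e-05), and fell after IL-1β (-0.27 ± 0.06, adjusted p = 0.00311). The enzyme itself, P3h1, had 84.3 ± 3.85 FPKM in bleomycin, 83.6 ± 8.02 in doxorubicin and 86.5 ± 7.68 in IL-1β libraries, against 108 ± 12.2 in vehicle libraries, and fell by 0.35, 0.37 and 0.32 (adjusted p = 0.00294, 0.00197 and 0.00614). Ppib, cyclophilin B and the highest of the 45 genes by mean level, had 936 ± 31.2 FPKM in bleomycin, 962 ± 41.7 in doxorubicin and 1100 ± 77.9 in IL-1β libraries, against 967 ± 50.9 in vehicle libraries. It rose after IL-1β (0.18 ± 0.06, adjusted p = 0.0182), but was at -0.20 with quantile normalization and -0.19 with an equal sum of FPKM. The call was also lost with median-of-ratios scaling (0.14), without a filter on low values, with only IL-1β and vehicle libraries fitted, and without IL-1β library 1 (0.17) or 3 (0.15) or vehicle library 1 (0.16).

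Prolyl 4-hydroxylase, which makes the hydroxyproline that holds the triple helix together, pairs P4hb with 1 of 3 alpha subunits. P4ha1 had 225, 228, 231 and 210 FPKM in bleomycin, 208, 195, 211 and 176 in doxorubicin and 147, 154, 155 and 129 in IL-1β libraries, against 199, 192, 193 and 196 in vehicle libraries. It fell after IL-1β (-0.42 ± 0.07, adjusted p = 7.72e-05), with all 4 libraries below vehicle. It rose after bleomycin (0.20 ± 0.07, adjusted p = 0.0221), a call lost without bleomycin library 2 or 3 (0.18 each) and with median-of-ratios scaling (0.13). P4ha2, the subunit with the highest level, had 337, 324, 332 and 314 FPKM in bleomycin, 298, 300, 311 and 303 in doxorubicin and 295, 296, 343 and 332 in IL-1β libraries, against 340, 314, 346 and 339 in vehicle libraries. It fell after doxorubicin (-0.14 ± 0.05, adjusted p = 0.04), a call lost without doxorubicin library 1 (-0.13), 2 or 4 (-0.14 each) or vehicle library 1 or 3 (-0.13 each) or 4 (-0.14), and without a filter on low values. Its IL-1β difference of -0.08 passed at -0.30 with quantile normalization. P4ha3, the subunit with the lowest level, had 34.5, 32.4, 25.7 and 33.5 FPKM in bleomycin, 28.9, 28.5, 23 and 30.6 in doxorubicin and 12.2, 10.7, 11.3 and 13.7 in IL-1β libraries, against 28.6, 25.2, 23.3 and 27.9 in vehicle libraries. It fell 2.2-fold after IL-1β (-1.07 ± 0.11, adjusted p = 4.98e-07), while its bleomycin difference of 0.25 (adjusted p = 0.0626) passed without bleomycin library 3 (0.34) and, at 0.25, with the replicate number as a block. As a share of the summed FPKM of the 3 subunits, which a single factor per library does not change, P4ha3 made up 5.43% ± 0.732 in bleomycin, 5.27% ± 0.753 in doxorubicin and 2.52% ± 0.312 in IL-1β, against 4.72% ± 0.401 in vehicle libraries.

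Lysyl hydroxylases prepare collagen lysines for crosslinks. Plod2, which acts on the telopeptides at the chain ends, had 236, 228, 226 and 253 FPKM in bleomycin, 220, 215, 243 and 211 in doxorubicin and 202, 194, 172 and 186 in IL-1β libraries, against 264, 264, 263 and 278 in vehicle libraries. Each treated library was below each vehicle library. Plod2 fell by 0.18, 0.27 and 0.50 (adjusted p = 0.0195, 0.00139 and 3.34e-06). The bleomycin call was lost at -0.16 without bleomycin library 2 or 3 or vehicle library 4, and with quantile normalization. Plod1, which acts on the helix, had 162, 156, 170 and 147 FPKM in bleomycin, 127, 136, 134 and 136 in doxorubicin and 109, 120, 145 and 135 in IL-1β libraries, against 154, 143, 159 and 146 in vehicle libraries. It fell after IL-1β (-0.25 ± 0.08, adjusted p = 0.0138), with overlapping libraries and no call without IL-1β library 1 (-0.18). Its doxorubicin difference of -0.17 passed when only doxorubicin and vehicle libraries were fitted. Plod3, which also adds sugars to hydroxylysine, had 92.2 ± 7.59 FPKM in bleomycin, 90.2 ± 4.98 in doxorubicin and 67.5 ± 4.3 in IL-1β libraries, against 98.3 ± 3.13 in vehicle libraries. It fell after IL-1β (-0.54 ± 0.06, adjusted p = 4.01e-06) and did not pass after either drug (adjusted p = 0.245 and 0.121). It overlaps Znhit1, with 17.4 to 34.5 FPKM, on the opposite strand. The isomerase gene Fkbp14 likewise fell after IL-1β, with 26.8 ± 2.61 FPKM against 38.8 ± 3.45 in vehicle libraries (-0.52 ± 0.08, adjusted p = 5.43e-05), and its bleomycin difference of 0.15 passed at 0.20 without vehicle library 4.

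Colgalt1, the galactosyltransferase of collagen hydroxylysine, split within groups. It had 54.4, 105, 58.5 and 49.9 FPKM in bleomycin, 90.4, 93.7, 51.3 and 86.8 in doxorubicin and 82.1, 81.1, 88.8 and 86.8 in IL-1β libraries, against 51, 98.4, 58.4 and 98.3 in vehicle libraries. Libraries of the bleomycin, doxorubicin and vehicle groups lay either between 49.9 and 58.5 or between 86.8 and 105 FPKM, with none in between, and the IL-1β libraries lay close together. With an SE of 0.25, none of its differences from vehicle passed (adjusted p = 0.555, 0.78 and 0.542), and that for IL-1β turned from 0.21 to -0.16 with an equal sum of FPKM.

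The 3 genes of procollagen export were lower after IL-1β, and 2 of them were lower after each drug. Counts over 3 genes are small, and over all genes 19%, 22.8% and 18.4% were lower after bleomycin, doxorubicin and IL-1β. Sec24d, a cargo-binding subunit of the COPII coat, had 66.4, 63.3, 63.5 and 64.7 FPKM in bleomycin, 67, 68.9, 68.2 and 65 in doxorubicin and 59.8, 59.2, 59.6 and 63 in IL-1β libraries, against 77.1, 77.3, 75.1 and 78.3 in vehicle libraries. The spread within groups was small and no treated library reached vehicle. Sec24d fell by 0.25, 0.19 and 0.34 (adjusted p = 8.38e-05, 0.000858 and 2.94e-06). Sec23a, its inner-coat partner, fell by 0.28, 0.20 and 0.46 (adjusted p = 0.00165, 0.014 and 1.33e-05), the doxorubicin call being lost at -0.17 without doxorubicin library 1 and with quantile normalization. Mia3, which encodes the procollagen receptor TANGO1, had 58.5 ± 2.29 FPKM in bleomycin, 51.8 ± 4.34 in doxorubicin and 43.9 ± 3.88 in IL-1β libraries, against 54.1 ± 6.01 in vehicle libraries, and fell after IL-1β (-0.29 ± 0.08, adjusted p = 0.00791). In direct comparisons, bleomycin and doxorubicin were above IL-1β for Mia3 by 0.41 and 0.24 (adjusted p = 0.000502 and 0.0225), the doxorubicin call being lost without doxorubicin library 2 (0.19) or 4 (0.22) or IL-1β library 2 (0.19) or 3 (0.20).

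Among the 44 tested genes, lysyl oxidases held the largest difference from vehicle in each of the 3 comparisons, Lox after both drugs and Loxl4 after IL-1β. These copper enzymes oxidise lysines of collagen and elastin so that crosslinks form. Lox (ENSMUSG00000024529.14, chromosome 18, 52516067 to 52529867) had 615, 535, 590 and 641 FPKM in bleomycin, 684, 634, 712 and 655 in doxorubicin and 477, 523, 455 and 519 in IL-1β libraries, against 383, 336, 353 and 490 in vehicle libraries. All drug libraries exceeded vehicle, and the highest vehicle library overlapped the IL-1β group. Lox rose 1.52-fold after bleomycin (0.62 ± 0.10, adjusted p = 7.27e-05), 1.72-fold after doxorubicin (0.79 ± 0.10, adjusted p = 4.82e-06) and 1.26-fold after IL-1β (0.35 ± 0.10, adjusted p = 0.00769). The IL-1β difference was 0.14, not called, with quantile normalization and -0.02 with an equal sum of FPKM. An unnamed gene, AC161119.1, with 3.55 to 10.1 FPKM, overlaps Lox on the opposite strand. Loxl4 (ENSMUSG00000025185.14, chromosome 19, 42593982 to 42612813), the second of the family by level in vehicle, had 201, 220, 217 and 187 FPKM in bleomycin, 190, 217, 192 and 178 in doxorubicin and 86.8, 83.8, 85.7 and 93.8 in IL-1β libraries, against 262, 274, 271 and 264 in vehicle libraries. All treated libraries were below vehicle, IL-1β far below. Loxl4 fell 1.3-fold after bleomycin (-0.38 ± 0.06, adjusted p = 0.000158), 1.38-fold after doxorubicin (-0.47 ± 0.06, adjusted p = 1.74e-05) and 3.06-fold after IL-1β (-1.60 ± 0.06, adjusted p = 1.07e-11).

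Loxl3 followed Loxl4 in direction. It had 80.9, 94.8, 84.5 and 85.6 FPKM in bleomycin, 82.4, 93.6, 80.7 and 75.9 in doxorubicin and 55, 50.7, 51.4 and 49.8 in IL-1β libraries, against 101, 110, 101 and 94.5 in vehicle libraries. It fell by 0.23, 0.29 and 0.96 (adjusted p = 0.0113, 0.00243 and 9.47e-09), with 1 bleomycin library overlapping vehicle. Loxl3 overlaps Htra2, with 20.6 to 59.2 FPKM, on the opposite strand. Loxl1, known for crosslinking elastin, had 37.9, 39.9, 43 and 37 FPKM in bleomycin, 37.9, 35.2, 35 and 43.7 in doxorubicin and 39.5, 36.7, 47.9 and 48.2 in IL-1β libraries, against 39.9, 38.1, 41.3 and 37.4 in vehicle libraries. The groups overlapped throughout and none passed, and its IL-1β difference of 0.12 turned to -0.24 with an equal sum of FPKM. Loxl2 had 74.3, 33.8, 64 and 64.8 FPKM in bleomycin, 70.8, 73, 63.7 and 33.2 in doxorubicin and 46.8, 41.2, 44 and 48.2 in IL-1β libraries, against 65.4, 63.1, 59.9 and 64.5 in vehicle libraries. A single low library in each drug group widened its SE to 0.23, so that the IL-1β difference of -0.48 did not pass (adjusted p = 0.103), although no IL-1β library reached vehicle. That difference passed when only the IL-1β and vehicle libraries were fitted (adjusted p = 0.000214) and with an equal sum of FPKM (-0.85).

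Within the family, the balance moved toward Lox in all treated groups. Lox made up 60.3% ± 2.28 of the summed FPKM of the 5 oxidases in bleomycin, 64.1% ± 2.78 in doxorubicin and 68.4% ± 1.94 in IL-1β, against 45% ± 4.65 in vehicle libraries. Every treated library was above the highest vehicle library, at 51.5%. Loxl4 made up 21% ± 2.34, 18.6% ± 1.36 and 12.1% ± 0.504 in bleomycin, doxorubicin and IL-1β, against 31.2% ± 2.53 in vehicle libraries. A single factor per library does not change these shares, whereas quantile normalization can, and the shares were not computed under it. A share shows unequal change within the family and not which member changed. The summed level of the family was 987 ± 42.7 FPKM in bleomycin, 1047 ± 42.6 in doxorubicin and 721 ± 33.2 in IL-1β, against 862 ± 60.1 in vehicle libraries.

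**Figure D3:**
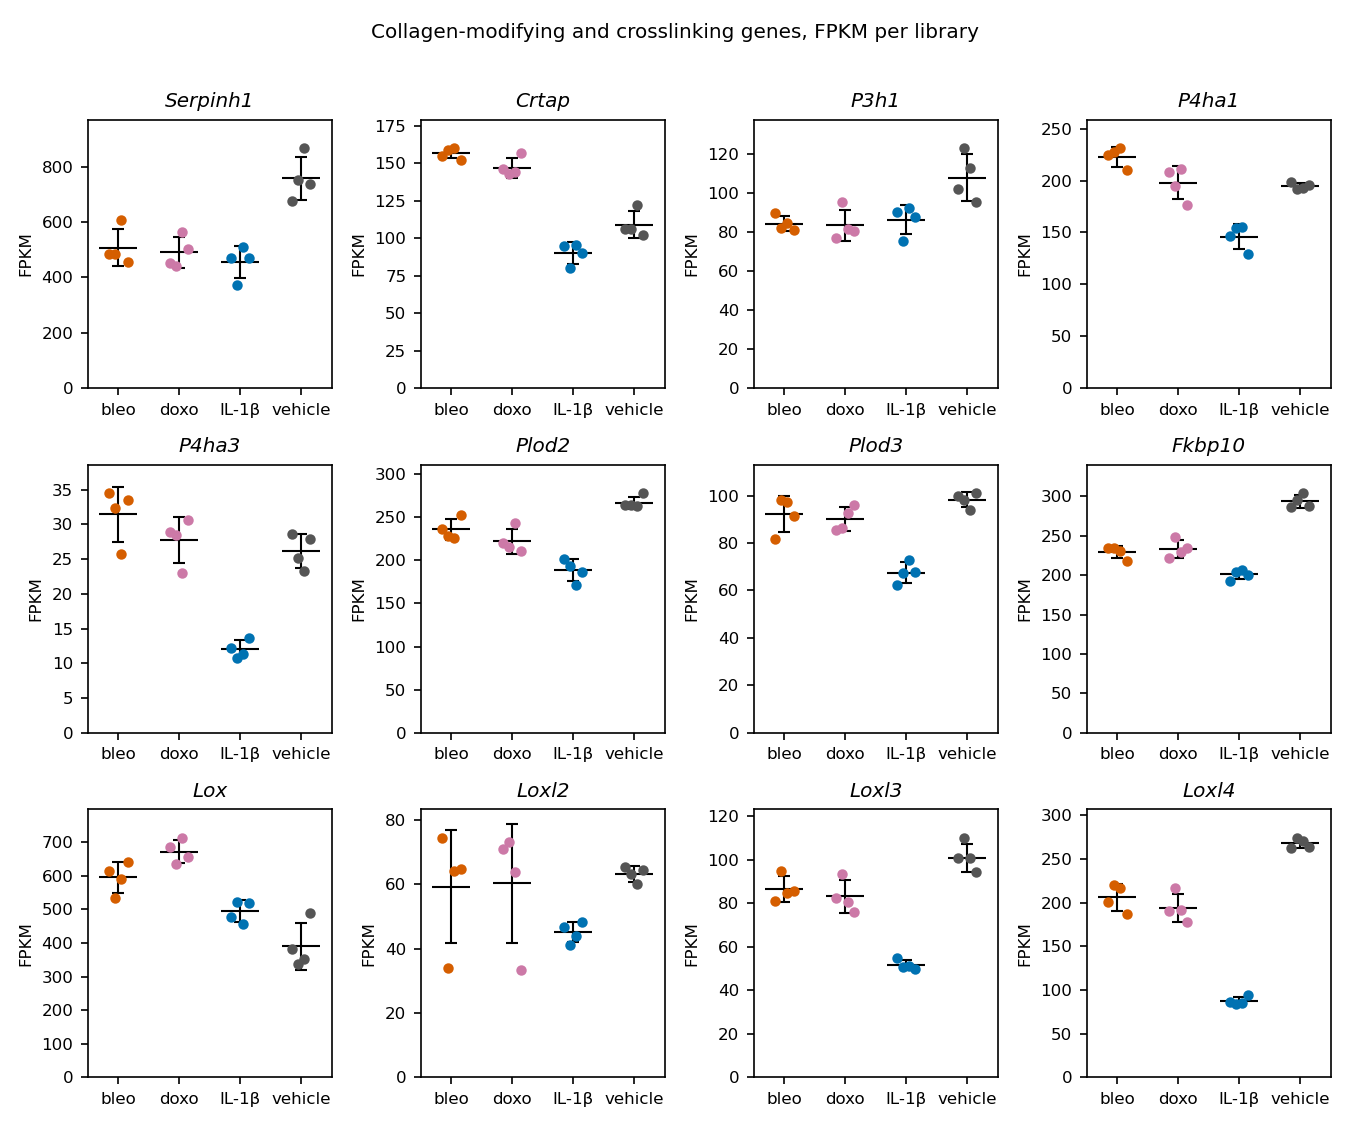
FPKM per library for 8 collagen-modifying genes and 4 lysyl oxidases in bleomycin (bleo), doxorubicin (doxo), IL-1β and vehicle. Points are libraries, long lines are means and whiskers are SD (n = 4). Loxl4, Loxl3 and P4ha3 are lowest in IL-1β, Crtap and Lox are highest in the drug groups, and the rise of Lox after IL-1β is -0.02 with an equal sum of FPKM.

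**Figure D4:**
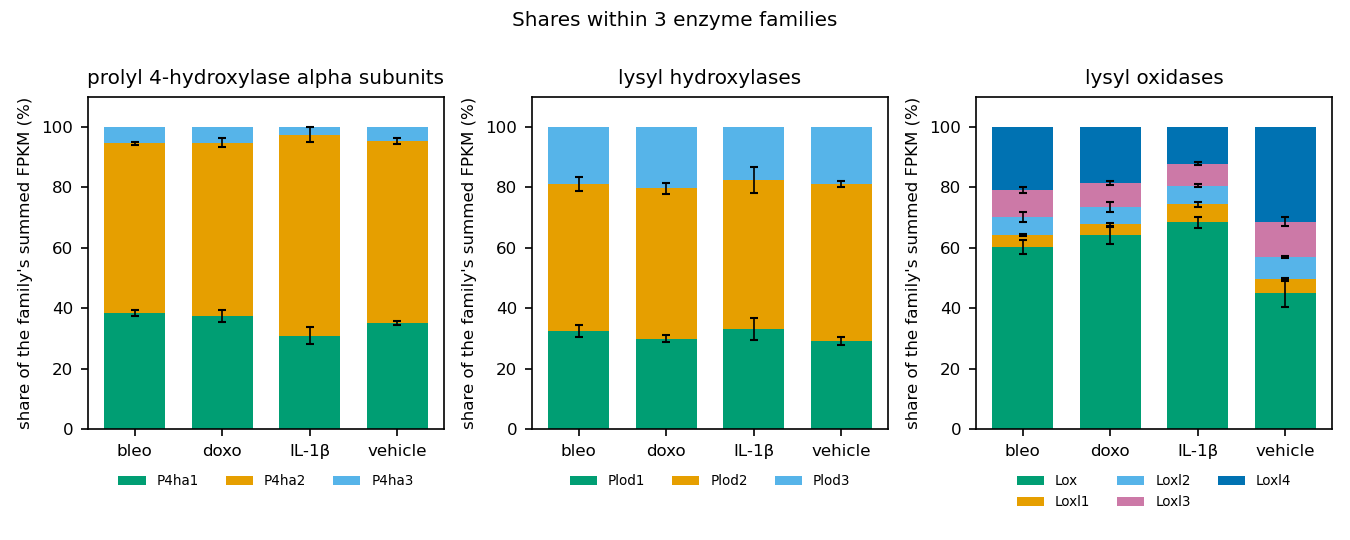
Mean share of each gene in the summed FPKM of its enzyme family, in percent, for prolyl 4-hydroxylase alpha subunits, lysyl hydroxylases and lysyl oxidases in bleomycin (bleo), doxorubicin (doxo), IL-1β and vehicle; whiskers on a segment are the SD of that gene's own share (n = 4), and the top segment has none. The Lox segment is larger and the Loxl4 segment smaller in each treated group than in vehicle, and P4ha3 is smallest in IL-1β.

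Few of these genes differed between the drugs by the test. In the direct comparison 6 of 44 genes were higher after bleomycin, 13.6%, against 5.85% of all genes, and 0 were lower by limma, against 4.18% of all genes. At an unadjusted p under 0.05 the counts were 10 higher and 0 lower. The 6 were the chaperone genes Hspa5 (0.40), Pdia4 (0.20), Dnajc3 (0.19), Hyou1 (0.24) and Sdf2l1 (0.42), and the lysyl hydroxylase gene Plod1 (0.25), with adjusted p of 0.0231, 0.0125, 0.0199, 0.0151, 0.0152 and 0.0487. For all 6, every bleomycin library exceeded every doxorubicin library. The count fell to 2 with median-of-ratios scaling, which lowers the share of higher calls over all genes to 38.7% against 58.3% as deposited (46.6% with quantile normalization). It was 2 to 5 when a single library was left out, the losses being at values of 0.17 to 0.39. Pdia4 kept its call in each of those refits but lost it with median-of-ratios scaling (0.15), as did Dnajc3 (0.15), Hyou1 (0.19) and Plod1 (0.20). Dnajc3 (0.17) and Plod1 (0.24) also lost theirs with quantile normalization, Hspa5 (0.40) and Plod1 (0.25) without a filter on low values, and Plod1 with a pseudocount of 0.1. Hspa5 lost its call without bleomycin library 2 (0.37) or 3 (0.39) or doxorubicin library 1 (0.33), Hyou1 without bleomycin library 2 or 3 (0.21 each), and Sdf2l1 without bleomycin library 3 or doxorubicin library 2 (0.36 each). Dnajc3 lost it without bleomycin library 1 (0.19) or 4 (0.17) or doxorubicin library 1 (0.18) or 2 (0.19), and Plod1 without any 1 of 7 libraries (0.22 to 0.26).

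Against IL-1β, most collagen-modifying genes were higher after each drug, and the chaperones that differed were more often lower. Both comparisons use the same 4 IL-1β libraries. After bleomycin 18 genes were higher and 7 lower than after IL-1β, 40.9% and 15.9%, against 27.6% and 25.2% of all genes. After doxorubicin 16 were higher and 8 lower, 36.4% and 18.2%, against 25.1% and 29.2% of all genes. Of the 13 collagen-modifying genes, 8 were higher and 1 lower after bleomycin, and 7 were higher and 1 lower after doxorubicin. The largest were P4ha3 (1.33 ± 0.11 and 1.15 ± 0.11, adjusted p = 3.28e-08 and 1.67e-07) and Crtap (0.79 ± 0.06 and 0.70 ± 0.06, adjusted p = 3.89e-08 and 1.48e-07). Loxl4 was higher after the drugs by 1.23 ± 0.06 and 1.14 ± 0.06 (adjusted p = 1.86e-10 and 4.42e-10). Of the 15 chaperones, 3 were higher and 6 lower after bleomycin, and 2 were higher and 7 lower after doxorubicin, with Sdf2l1 lower by 0.44 and 0.87 (adjusted p = 0.00185 and 2.76e-06) and Creld2 by 0.31 and 0.49 (adjusted p = 0.000608 and 8.28e-06). Chaperone calls of this kind depended on scaling. With an equal sum of FPKM, 40 genes were higher and 0 lower after bleomycin, and 34 higher and 1 lower after doxorubicin. Creld2 turned to 0.06 for bleomycin and lost its call for doxorubicin (-0.12), and Sdf2l1 lost its call for bleomycin (-0.07). Over all genes, the share of higher calls then became 86.2% and 81.9%, against 52.2% and 46.2% as deposited. P4ha3, Crtap and Loxl4 were higher under each scaling tried.

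Genes of neighbouring steps were counted the same way. Of 10 fibrillar collagen genes, 2 rose and 4 fell after bleomycin, 2 rose and 6 fell after doxorubicin, and 1 rose and 9 fell after IL-1β. The shares higher were 20%, 20% and 10%, against 27.9%, 25.4% and 24.5% over all genes tested. Lower were 40%, 60% and 90%, against 19%, 22.8% and 18.4%. Col2a1, the main collagen of cartilage, had 6356 ± 718 FPKM in bleomycin, 6495 ± 764 in doxorubicin and 3972 ± 147 in IL-1β libraries, against 8971 ± 1192 in vehicle libraries (-0.49, -0.46 and -1.17, adjusted p = 0.000935, 0.00142 and 1.3e-07). Col3a1 rose after both drugs, to 699 ± 12.7 FPKM in bleomycin and 794 ± 55.8 in doxorubicin libraries, against 458 ± 25.8 in vehicle libraries (0.61 and 0.79, adjusted p = 2.64e-06 and 1.16e-07). The gene that rose after IL-1β was Col5a3, at 22.5 ± 1.77 FPKM against 3.78 ± 0.631 in vehicle libraries (2.30 ± 0.11, adjusted p = 9.14e-11).

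Other collagen modifying and maturation genes were measured at 14 tested of 15 listed. Here 9 rose and 2 fell after bleomycin, 8 rose and 4 fell after doxorubicin, and 2 rose and 10 fell after IL-1β. The shares higher were 64.3%, 57.1% and 14.3%, against 27.9%, 25.4% and 24.5% over all genes tested. Lower were 14.3%, 28.6% and 71.4%, against 19%, 22.8% and 18.4%. Pcolce, the enhancer of procollagen C-propeptide cleavage, had 788 ± 18.1 FPKM in bleomycin, 736 ± 5.91 in doxorubicin and 209 ± 23.4 in IL-1β libraries, against 510 ± 43.5 in vehicle libraries (0.63, 0.53 and -1.28, adjusted p = 3.12e-06, 1.48e-05 and 5.92e-10). Fkbp7, an ER prolyl isomerase, had 71.7 ± 5.21 FPKM in bleomycin and 80.9 ± 5.41 in doxorubicin libraries, against 40.5 ± 3.81 in vehicle libraries (0.81 and 0.98, adjusted p = 1.66e-07 and 1.31e-08). Adamts2, the procollagen N-proteinase, rose 2.17-fold after doxorubicin to 17.4 ± 0.858 FPKM, against 8.02 ± 0.707 in vehicle libraries (adjusted p = 1.62e-08). P3h2, another prolyl 3-hydroxylase, fell 3.02-fold after IL-1β to 10 ± 0.87 FPKM, against 30.2 ± 5.09 in vehicle libraries (adjusted p = 4.85e-09).

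The third branch of the unfolded protein response acts through PERK and ATF4. Of 9 genes on that list, 2 rose and 4 fell after bleomycin, 0 rose and 4 fell after doxorubicin, and 0 rose and 6 fell after IL-1β by limma. At an unadjusted p under 0.05, 1 and 0 were higher after doxorubicin and IL-1β. The shares called lower were 44.4%, 44.4% and 66.7%, against 19%, 22.8% and 18.4% over all genes tested. After bleomycin 22.2% were higher, against 27.9% over all genes, which for doxorubicin and IL-1β was 25.4% and 24.5%. Trib3, a pseudokinase induced by ATF4, had 39.5 ± 2.65 FPKM in bleomycin and 29.3 ± 3.44 in doxorubicin libraries, against 76.8 ± 5.37 in vehicle libraries (-0.94 and -1.37, adjusted p = 9.54e-07 and 1.06e-08). Chac1, a glutathione-degrading enzyme and ATF4 target, had 18.5 ± 1.62 FPKM in doxorubicin and 20 ± 2.06 in IL-1β libraries, against 43.3 ± 2.7 in vehicle libraries (-1.18 and -1.08, adjusted p = 1.23e-07 and 3.2e-07). Among ER-to-Golgi transport regulators of the OASIS family, Creb3l2, whose targets include COPII genes, had 13.8 ± 0.395 FPKM in IL-1β libraries against 30 ± 1.48 in vehicle libraries (-1.06 ± 0.06, adjusted p = 3.02e-10), and fell by 0.28 after doxorubicin (adjusted p = 0.00053). Creb3l2 was counted on a small list of 5 tested genes that joins the OASIS family with protease genes such as Mbtps1. On that list 2 rose and 2 fell after each drug, 40% each way. After IL-1β 0 rose and 2 fell by limma, with 1 higher at an unadjusted p under 0.05.

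Neighbouring steps were read against the shares over all genes given above, 27.9% higher and 19% lower after bleomycin, 25.4% and 22.8% after doxorubicin, and 24.5% and 18.4% after IL-1β. Of 17 tested COPII, cargo and retrieval genes beyond the 3 above, 1 rose and 7 fell after bleomycin, 1 and 7 after doxorubicin, and 1 and 9 after IL-1β. The KDEL receptor gene Kdelr2, which returns escaped chaperones to the ER, had 124 ± 5.08 FPKM in bleomycin and 122 ± 4.82 in doxorubicin libraries, against 167 ± 5.67 in vehicle libraries (-0.43 and -0.45, adjusted p = 1.2e-06 and 6.02e-07). Of 21 translocation and N-glycosylation genes, 2 rose and 9 fell after bleomycin, 3 and 13 after doxorubicin, and 3 and 10 after IL-1β, Sec61b of the protein channel being at 162 ± 9.99 FPKM in bleomycin against 235 ± 11.3 in vehicle libraries (-0.54 ± 0.06, adjusted p = 1.27e-06). Of 16 other folding enzymes, 4 were higher and 1 lower after bleomycin, 25% higher and so near the 27.9% over all genes. There were 3 higher and 2 lower after doxorubicin, and 1 higher and 5 lower after IL-1β. Sil1, a nucleotide exchange factor of BiP like Hyou1, had 32.3 ± 3.49 FPKM in bleomycin and 30.8 ± 2.43 in doxorubicin libraries, against 19.3 ± 1.49 in vehicle libraries (0.71 and 0.64, adjusted p = 1.25e-05 and 2.59e-05). Other degradation genes gave 6 higher and 2 lower of 11 after bleomycin, 4 and 1 after doxorubicin, and 1 and 5 after IL-1β. Os9, a lectin that hands glycoproteins to the Sel1l and Syvn1 ligase, had 103 ± 3.2 FPKM in bleomycin and 101 ± 8.22 in doxorubicin libraries, against 65.1 ± 1.78 in vehicle libraries (0.65 and 0.63, adjusted p = 1.37e-07 and 1.39e-07). Sil1 and Os9 rose after both drugs, whereas Hyou1, Herpud1 and Edem1 fell after both.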

How the data were processed

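Messenger RNA of 16 libraries, 4 per group, was sequenced after TruSeq stranded mRNA preparation from 1 µg of RNA, per the labels' protocols. Trimmomatic was used for trimming and STAR for alignment to GRCm38, per the submitters' processing notes. The deposited tables hold FPKM computed by the authors, 1 table per library, and the tool and annotation behind FPKM are not given in the sources used here. Depth was estimated from the steps between low values. Only 65.8% to 69.7% of low values came out whole within 0.1 of a fragment, so counts were not recovered and no count test was run.

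Genes were found by symbol, and coordinates came from GENCODE M21 by identifier (3 of the 45 matched without the version). Groups were taken from sample titles. Values were analysed as log2(FPKM + 1) with limma 3.58.1 in R 4.3.3 (lmFit, eBayes with trend), 16 libraries in a single fit, on 12976 genes at or above 1 FPKM in at least 4 libraries, two-sided and Benjamini-Hochberg adjusted per comparison. The test was checked on simulated data. Summaries used Python 3.11.15, pandas 2.3.3, numpy 2.4.6 and matplotlib 3.10.9. Promoters were RefSeq windows. Alternatives were a pseudocount of 0.1, no filter or 5 FPKM, 3 other scalings, only the groups compared, a replicate block and each library left out. The genes, roles and lists were chosen with earlier results of these data known. All 45 genes could be named. Other genes were named as up to 2 called per list and treatment with the largest difference, rising or falling, beside Col2a1, defining markers and genes that overlap one of the 45. Saa3 was named after its values were seen.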

Additional observations from a re-analysis of the deposited data

Results flagged for a closer look

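In each group of 4 libraries, the gap from the highest or lowest library to its nearest neighbour was divided by the range of the group, and values over Dixon's critical value at the 95% level for 4 values were taken up here. This was done for 177 groups, leaving out 3 groups in which Derl3 was under 1 FPKM in every library. Of the 177, 12 passed, where chance gives about 1 in 20. No cause was tested for any of them.

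Canx had 155 FPKM in bleomycin library 4, against 145 to 146 in the other 3, and 145 FPKM in IL-1β library 3, against 170 to 174. Dnajb9 had 26.9 FPKM in doxorubicin library 3, against 21.1 to 21.7, and Fkbp14 had 43.7 FPKM in the same library, against 37.2 to 38.1. Herpud1 had 53 FPKM in bleomycin library 4, against 57.8 to 58.3. Sel1l had 38.6 FPKM in bleomycin library 2, against 27.2 to 28.8, and 33.8 FPKM in doxorubicin library 1, against 26.5 to 27.2. Derl3, which is near the detection level, had 1.14 FPKM in bleomycin library 3, against 0.357 to 0.486. Plod2 had 278 FPKM in vehicle library 4, against 263 to 264. Sec24d had 63 FPKM in IL-1β library 4, against 59.2 to 59.8.

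Colgalt1 stood apart in libraries of different groups, with 105 FPKM in bleomycin library 2, against 49.9 to 58.5 in the other 3, and 51.3 FPKM in doxorubicin library 3, against 86.8 to 93.7. Its vehicle libraries were split as well, with 98.4 and 98.3 FPKM in libraries 2 and 4, against 51 and 58.4 in libraries 1 and 3.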

How the results depend on the processing

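Scaling moved counts of these genes by over 1.5 times in 3 comparisons with IL-1β and in bleomycin against doxorubicin. With an equal sum of FPKM, 0 genes rose and 40 fell after IL-1β against vehicle (4 and 23 as deposited). Bleomycin against IL-1β gave 40 higher and 0 lower (18 and 7), and doxorubicin against IL-1β 34 higher and 1 lower (16 and 8). Quantile normalization gave 1 higher after IL-1β against vehicle, 2 lower for bleomycin against IL-1β and 5 lower for doxorubicin against IL-1β. Median-of-ratios scaling gave 2 higher for bleomycin against doxorubicin (6). The cause of the last 4 was not tested.

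Among genes called as deposited or under the alternative, direction turned for IL-1β against vehicle with an equal sum of FPKM in Hspa5 (-0.33), Calr (-0.31), Canx (-0.36), Dnajb11 (-0.31), Creld2 (-0.11), Ppib (-0.19), Lox (-0.02) and Loxl1 (-0.24), and with quantile normalization in Calr (-0.16) and Ppib (-0.20). For bleomycin against IL-1β it turned with an equal sum in Hspa5 (0.29), Hsp90b1 (0.15), Calr (0.24), Canx (0.23), Pdia3 (0.32), Pdia6 (0.18), Hyou1 (0.18), Manf (0.28), Creld2 (0.06), Xbp1 (0.28), P3h1 (0.34), Ppib (0.15) and Loxl1 (0.26), and with quantile normalization in Calr (0.18), Pdia6 (0.01) and Ppib (0.16). For doxorubicin against IL-1β it turned with an equal sum in Hsp90b1 (0.16), Calr (0.30), Canx (0.16), Pdia6 (0.06), Dnajb11 (0.36), Xbp1 (0.25), Herpud1 (0.35), P4ha2 (0.32), P3h1 (0.33) and Ppib (0.19), and with quantile normalization in Calr (0.22), Dnajb11 (0.13) and Ppib (0.16).

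Leaving out each library in turn gave 3 to 6 genes higher and 14 to 18 lower after bleomycin, 3 higher and 20 to 23 lower after doxorubicin, and 3 to 4 higher and 21 to 25 lower after IL-1β. It gave 2 to 5 higher and 0 lower for bleomycin against doxorubicin, 15 to 19 higher and 6 to 8 lower for bleomycin against IL-1β, and 15 to 16 higher and 8 to 9 lower for doxorubicin against IL-1β. Replicate numbers were given in the labels. Correlations of deviations over 24 same-numbered pairs were -0.0233 to 0.214 (median 0.0518), with 6 over 0.1. Over 72 pairs with different numbers they were -0.195 to 0.099 (median -0.0232). Same-numbered libraries thus tended weakly to deviate together, for a reason that was not tested. The labels state no pairing, so the numbers were left out of the main fit. The replicate block left all counts of these genes within 1.5 times. With the block Pdia4 (-0.11) and P4ha3 (0.25) gained and Manf (-0.29) lost a call after bleomycin against vehicle, P4ha1 (0.18) gained one for bleomycin against doxorubicin, and Xbp1 (-0.12) gained one for doxorubicin against IL-1β. The labels give no batch, FPKM gives no counts, and 4 libraries a group limit what differences could be seen.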
